A study of Mus musculus with 9 samples.

Results

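The actin cytoskeleton and migration machinery of splenic type 2 conventional dendritic cells (cDC2) was followed through 45 genes chosen by name, of which 44 are held by the deposited tables under the listed symbol, out of 24054 genes in all. The remaining gene, Diaph1, stands in the tables under its older symbol Diap1 and was kept out of the counts. Its values are given once, with the formins. Messenger RNA was sequenced in 9 libraries, 3 per group: young TOM+ cDC2 and young TOM- DC2, both from mice at postnatal day 8, and adult TOM+ cDC2 from mice that were 9 weeks old in replicate 1 and 8 weeks old in replicates 2 and 3. All mice were Clec9a-Cre/Cre Rosa-tdTomato/tdTomato on C57BL/6, so every group, controls included, carried 2 copies each of the reporter and of the Cre knock-in at Clec9a, which leaves no functional Clec9a. Cre in this model is driven by Clec9a, which encodes the receptor DNGR-1, and the fluorescent protein TOMATO (TOM) therefore marks cells that expressed Clec9a themselves or descend from a precursor that did. Cells were sorted as live, single and autofluorescence-negative with CD11c, MHCII and CD11b on their surface, and each young library comes from several pooled spleens and not from an individual mouse. A TOM- adult group was not analysed here, and TOM- DC2 could be compared with adult TOM+ cells only.

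Cells crawl by pushing their membrane forward with growing actin filaments and pulling the rest along. Small GTPases such as Rac1 and Cdc42, switched on by exchange factors such as the DOCK proteins, activate nucleation-promoting factors of the WASP and WAVE families, which turn on the Arp2/3 complex so that it grows new branches on existing filaments. Formins and VASP-type proteins lengthen filaments, cofilin, gelsolin and capping protein limit and recycle them, coronins, fascin and plastin shape networks and bundles, and myosins, talin and vinculin apply force and link filaments to the membrane and to integrins. In dendritic cells this machinery serves the uptake of antigen, movement through the spleen and contact with T cells.

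Between 12783252 and 22809401 reads per library were counted on genes. All 10 cDC2 identity genes were detected, with summed levels of 17520 to 32110 TPM, a level that is scaled to transcript length and to the library's total, across the libraries. Most of this sum was the MHCII gene H2-Ab1, at 15674 to 29642 TPM. Of the 10, 3 were higher and 6 lower in each young group than in adults, 3 of them with a log2FC beyond 1. Over all genes tested, 40.6% passed in young TOM+ cDC2 and 36.3% in young TOM- DC2. Monocyte and macrophage genes, many of which cDC2 also express, summed to 1940 to 3338 TPM and cDC1 genes to 201.4 to 253.1 TPM, with overlap between every young group and the adults for the former. Of the 10 monocyte and macrophage genes, 2 were higher and 1 lower in young TOM+ cDC2 than in adults, led by Ccr2 with a log2FC of 1.011 (edgeR adjusted p = 0.000813), and 3 were higher in young TOM- DC2. The part of these genes in the results was not tested. Most of the cDC1 sum was Batf3, at 151.6 to 194.0 TPM. Clec9a itself stood at no more than 0.34 TPM in any library. Because both copies of Clec9a carry Cre in these mice, that level does not show how many cDC1 were present. The pDC genes summed to at most 164.2 TPM, the B cell genes to at most 80.8 TPM and the T cell genes to at most 39.8 TPM. Erythroid and megakaryocyte genes summed to 643.4 TPM in 1 young TOM- library, replicate 1, against at most 42.5 TPM in any young TOM+ library and 16.1 TPM in any adult library. Neutrophil genes reached 32.2 TPM in a young TOM- library and at most 0.84 TPM in the other groups. In bulk samples, fewer cells of a type and less RNA per cell cannot be told apart.

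The genes lay in the upper part of the range of expression in these cells, with 6947 of the 14452 genes tested at or above the lowest of them (12.9 TPM on average over all libraries). In young TOM+ cDC2 the most abundant was Actb, encoding beta-actin, at 8137 ± 1068 TPM (SD, n = 3), followed by the filament-severing protein cofilin (Cfl1) at 6080 ± 69.3 TPM, the monomer-binding protein profilin (Pfn1) at 5670 ± 470.0 TPM and Actg1, encoding gamma-actin, at 5067 ± 97.8 TPM. Cfl1, at 6002 to 6132 TPM across the libraries, and Pfn1, at 5270 to 6188 TPM, overlapped, while Actg1, at 4980 to 5173 TPM, lay below both. The lowest was Rhoh, a small GTPase of blood cells that does not hydrolyse GTP, at 11.1 ± 0.371 TPM. The 44 genes together made up 4.61% to 4.92% of all transcripts in young TOM+ cDC2, 4.52% to 4.92% in young TOM- DC2 and 3.76% to 4.05% in adult cDC2. Without the actins the shares were 3.32% to 3.49%, 3.34% to 3.49% and 2.82% to 2.86%. Young and adult shares did not overlap, and a share of TPM moves with the level of every other gene in the library.

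**Figure D1:**
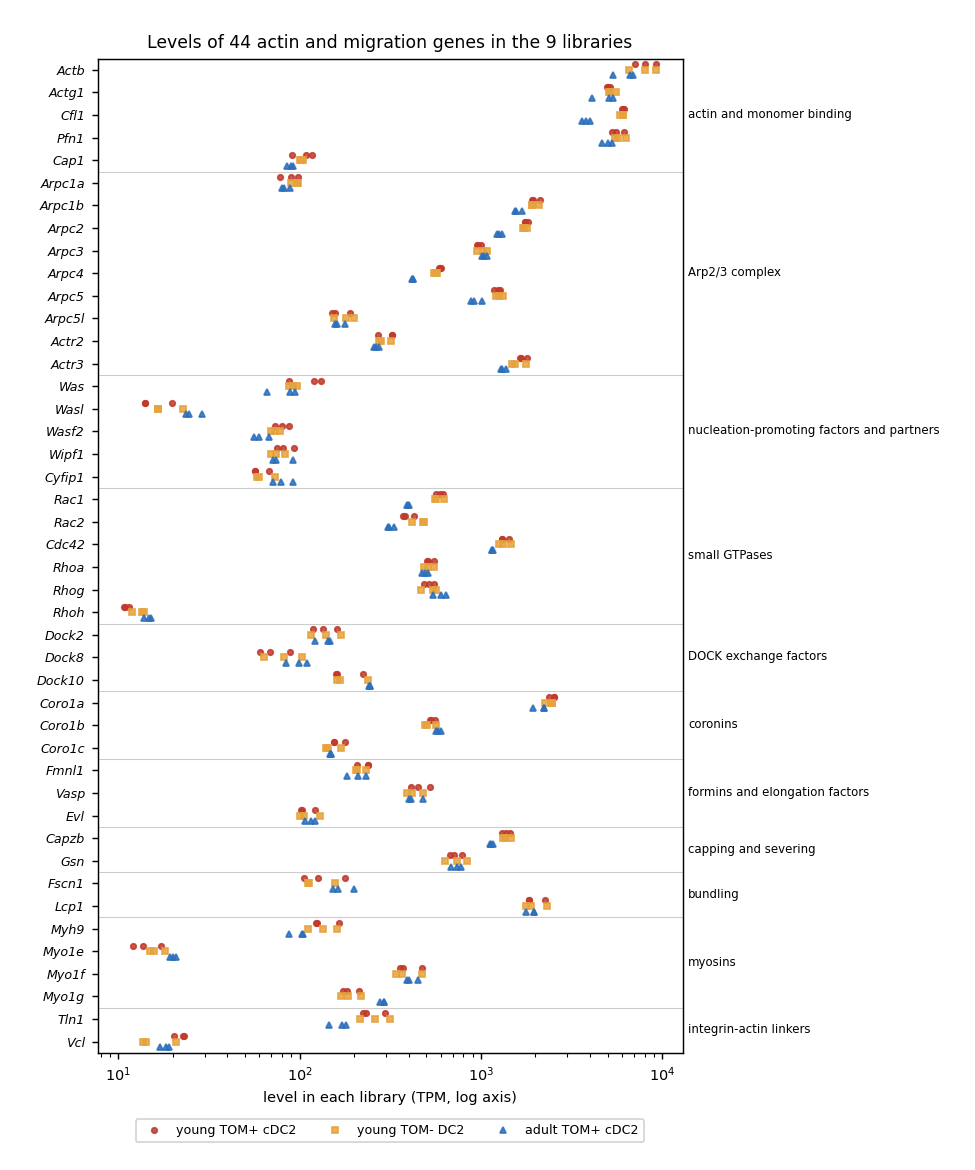
Level of each of the 44 genes in each of the 9 libraries, in TPM on a log axis, with genes ordered by role and 1 point per library (circles, young TOM+ cDC2; squares, young TOM- DC2; triangles, adult TOM+ cDC2). The genes run from Rhoh near 11 TPM to Actb at up to 9235 TPM, and for most genes the points of the 3 groups lie close together or overlap.

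Several actin genes are textbook targets of serum response factor, which binds the CArG box, a 10-base element that reads as a CArG box on both strands. RefSeq promoter windows of build GRCm38.p6 were matched for 38 of the 44 genes, and the 250 bases before each start were searched. Actb, Arpc5l, Cyfip1, Rac1, Rac2 and Coro1b had no window and were not searched. A CArG box was found for 4 of the 38, against 439 of the 27025 genes with a window (1.62%). The stretches are shown because these genes hold different roles and did not change alike with age. The capitals mark the CArG box, with up to 20 bases on either side that lie within the window.

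Actg1, gamma-actin, chr11:120348556-120348605, minus strand, box 90 bases before the start: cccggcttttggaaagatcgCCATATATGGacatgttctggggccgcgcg
Vcl, vinculin, chr14:20929151-20929200, plus strand, box 227 bases before the start: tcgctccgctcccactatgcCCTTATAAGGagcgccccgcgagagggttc
Myo1e, a class I myosin, chr9:70207298-70207347, plus strand, box 32 bases before the start: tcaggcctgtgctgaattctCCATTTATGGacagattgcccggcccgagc
Arpc4, a subunit of the Arp2/3 complex, chr6:113377863-113377892, plus strand, box 250 bases before the start: CCTAATTTGGtgcccaacctgaggtcgggc

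A match is a description of the letters and not of a bound site. Of these genes Arpc4 was higher and Myo1e lower in both young groups than in adults, Vcl was lower in young TOM- DC2, and Actg1 passed the test in neither comparison. Among the genes of serum response factor and its cofactors, 0 of 3 passed in young TOM+ cDC2, where 40.6% of all genes tested did. In young TOM- DC2, 1 of 3 passed, as lower in young, where 36.3% of all genes tested passed and 16.9% passed as lower.

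The first question was how far this machinery differs between the ages in cells of the same Clec9a history. The paper divides splenic cDC2 into cells with high and with low surface ESAM. It reports that the share with high ESAM at 1 week was slightly below that of adults. The sort did not separate these cells. A change within cells and a shift in their mix therefore cannot be told apart here. All 44 genes passed the filter on low counts. In young TOM+ cDC2 against adult TOM+ cDC2, 18 of the 44 genes (40.9%) passed an edgeR adjusted p of 0.05, where 40.6% of all 14452 genes tested did. Of these 9 were higher in young cells, where 21.0% of all genes tested were higher, and 9 were lower, where 19.5% of all genes tested were lower. The share of the 44 genes is close to that of all genes and below that of the 6947 genes at or above the level of the lowest of the 44, of which 52.4% passed. The median log2 fold change (log2FC) of the 44 was -0.02, against 0.05 over all genes tested. None of the 44 had a log2FC beyond 1 in either direction, whereas 12.8% of all genes tested combined such a change with an adjusted p under 0.05. Among the 6947 more abundant genes, 8.54% did.

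Young TOM- DC2 against the same adult libraries gave a like count. Here 17 of the 44 (38.6%) passed, where 36.3% of all genes tested and 46.1% of the 6947 more abundant genes did. Of these 7 were higher, where 19.4% of all genes tested were higher, and 10 were lower, where 16.9% of all genes tested were lower. The median log2FC was -0.09, against 0.07 over all genes tested, and again none had a log2FC beyond 1, which 11.3% of all genes tested had with an adjusted p under 0.05. Both age comparisons use the same 3 adult libraries and are therefore given side by side and not as support for each other. The genes higher in both young groups were Cfl1, Arpc2, Arpc4, Arpc5, Rac1 and Tln1, and those lower in both were Wasl, Cyfip1, Rhog, Rhoh, Dock10, Coro1b, Myo1e and Myo1g.

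**Figure D2:**
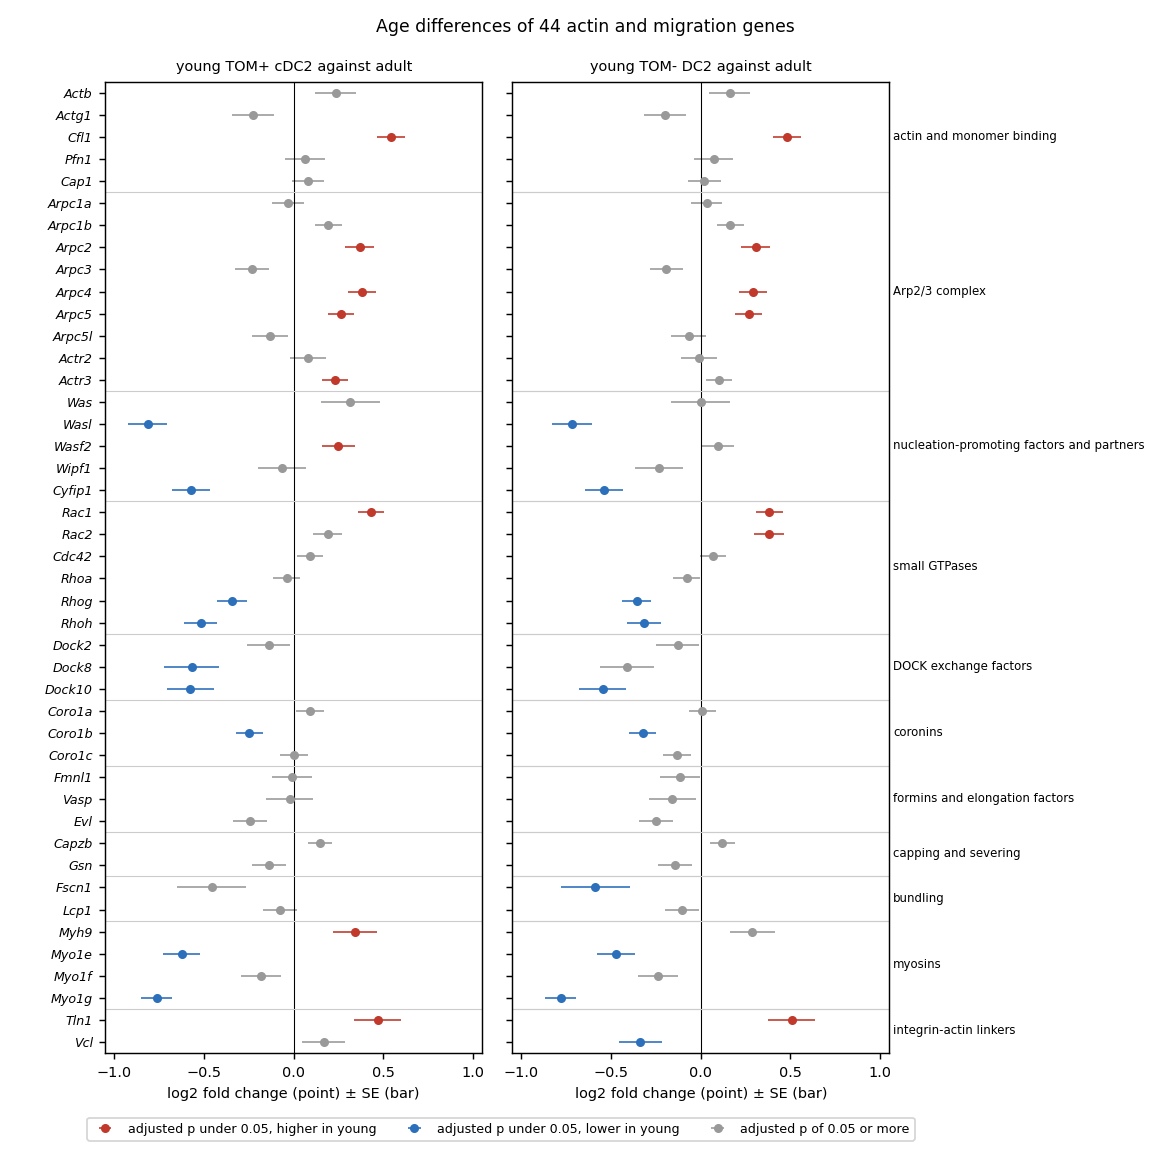
Log2 fold change from edgeR (points) of the 44 genes in young TOM+ cDC2 (left) and young TOM- DC2 (right) against the same adults. Genes are ordered by role, and bars give the standard error derived from the test's F statistic. Red and blue points had an adjusted p under 0.05; all 44 lie between -0.81 and 0.54, with Wasl and Myo1g lowest and Cfl1 and Tln1 highest.

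Among actin and the proteins that bind its monomers, Cfl1 (chr19:5490455-5494031, GRCm38) was the gene that changed. Cfl1 stood at 6107, 6132 and 6002 TPM in young TOM+ cDC2, at 5828, 6064 and 6071 TPM in young TOM- DC2 and at 3627, 3780 and 4006 TPM in adults. Every young library was above every adult library. The counts gave a log2FC of 0.54 ± 0.078 (SE) in young TOM+ cDC2, a 1.46-fold difference (edgeR adjusted p = 0.000167), and of 0.48 ± 0.078 in young TOM- DC2 (edgeR adjusted p = 0.00046). Cofilin severs old filaments and returns monomers for new growth. Actb stood at 9235, 7102 and 8073 TPM in young TOM+ cDC2, 9206, 6575 and 7991 TPM in young TOM- DC2 and 5385, 6665 and 6900 TPM in adults, so that the lowest young TOM- library lay below the highest adult library. Its log2FC was 0.23 ± 0.11 in young TOM+ cDC2 (edgeR adjusted p = 0.121) and 0.16 ± 0.11 in young TOM- DC2 (edgeR adjusted p = 0.287).

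The message for gamma-actin was hardly counted by STAR. Actg1 has many near-identical copies in the genome, and STAR, which counts reads with a single position, assigned it 737 to 1747 reads per library, 1.23% to 1.48% of RSEM's estimate, where the median over all genes tested was 102%. Its log2FC was -0.23 ± 0.12 from STAR counts and -0.09 from RSEM counts in young TOM+ cDC2, neither past the threshold (edgeR adjusted p = 0.139 and 0.486). Left without adult replicate 1, where Actg1 stood at 4092 TPM against 5086 and 5371 TPM in the other adults, the STAR counts would call Actg1 lower in young TOM+ cDC2 (edgeR adjusted p = 0.00616) and in young TOM- DC2 (edgeR adjusted p = 0.0116). Pfn1, with adjusted p of 0.68 and 0.645, and Cap1, which helps recycle actin monomers, with adjusted p of 0.508 and 0.884, passed edgeR's test in neither comparison. STAR also counted only 58.7% to 60.3% of RSEM's estimate for Cfl1, 45.3% to 46.3% for Actr3 and 47.3% to 49.9% for Rhoa, and for these genes RSEM counts gave log2FC of 0.52, 0.20 and -0.07 in young TOM+ cDC2, on the same side of the threshold as STAR counts.

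The Arp2/3 complex holds 7 kinds of subunit, for 2 of which the list has alternative genes. Their messages were far from equal in young TOM+ cDC2: Arpc1b stood at 1991 ± 101 TPM, Arpc2 at 1778 ± 43.2 TPM and Actr3 at 1705 ± 87.5 TPM, and at the other end Actr2 at 306.2 ± 29.6 TPM, Arpc5l at 166.0 ± 19.9 TPM and Arpc1a at 88.4 ± 9.82 TPM. Arpc2, Arpc4 and Arpc5 were higher in both young groups and Actr3 in young TOM+ cDC2, and none of the 9 genes passed as lower. Over all genes tested, 21.0% were higher and 19.5% lower in young TOM+ cDC2, and 19.4% and 16.9% in young TOM- DC2. Arpc2, part of the core that holds the branch to the mother filament, stood at 1751, 1828 and 1755 TPM in young TOM+ cDC2, 1723, 1795 and 1707 TPM in young TOM- DC2 and 1222, 1259 and 1306 TPM in adults. Its log2FC was 0.37 ± 0.080 (edgeR adjusted p = 0.00305) and 0.31 ± 0.080 (edgeR adjusted p = 0.01). Arpc4, its partner in that core, had the tightest groups: 592.7, 604.2 and 585.9 TPM, then 568.4, 554.7 and 575.0 TPM, against 421.6, 420.2 and 415.7 TPM in adults. Its log2FC was 0.38 ± 0.077 (edgeR adjusted p = 0.00181) and 0.29 ± 0.077 (edgeR adjusted p = 0.0108), and the second call was lost without young TOM- replicate 3 (edgeR adjusted p = 0.0561).

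Arpc5 stood at 1276, 1186 and 1245 TPM in young TOM+ cDC2, 1329, 1262 and 1205 TPM in young TOM- DC2 and 921.4, 881.9 and 1021 TPM in adults, again without overlap. Its log2FC of 0.26 ± 0.074 (edgeR adjusted p = 0.0127) was lost without young TOM+ replicate 3 (edgeR adjusted p = 0.0796), and its log2FC of 0.27 ± 0.074 in young TOM- DC2 (edgeR adjusted p = 0.0135) without young TOM- replicate 2 (edgeR adjusted p = 0.0512). Actr3, one of the actin-like subunits from which the branch starts, had a log2FC of 0.23 ± 0.073 in young TOM+ cDC2 (edgeR adjusted p = 0.0231) and 0.10 ± 0.073 in young TOM- DC2 (edgeR adjusted p = 0.296). The first was lost without any 1 of the young TOM+ libraries (edgeR adjusted p of 0.066, 0.0633 and 0.0839 without replicates 1, 2 and 3) or without adult replicate 1 (0.0597). The sum over the 9 genes was 8838 ± 224 TPM in young TOM+ cDC2, 8735 ± 244 TPM in young TOM- DC2 and 7101 ± 148 TPM in adults. Arpc1a, Arpc5l and Actr2 had log2FC between -0.13 and 0.08 in both comparisons. Arpc1b and Arpc3 lay near the threshold on opposite sides of 0, with log2FC of 0.19 ± 0.076 and -0.23 ± 0.093 in young TOM+ cDC2 (edgeR adjusted p = 0.0602 and 0.0645). Left without adult replicate 2, Arpc1b passed (edgeR adjusted p = 0.0215, and 0.0394 in young TOM- DC2), and left without young TOM- replicate 1 or 3, Arpc3 passed as lower in young TOM+ cDC2 (edgeR adjusted p = 0.0381 and 0.0445). Of the 21 alternatives given below, 6 called Arpc1b higher and 8 called Arpc3 lower in young TOM+ cDC2. The 8 included DESeq2 size factors and RSEM counts (edgeR adjusted p = 0.0413 and 0.0411).

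Of the genes for factors that switch the Arp2/3 complex on, and for their partners, Wasl and Cyfip1 fell in both young groups, Wasf2 rose in young TOM+ cDC2, and Was and Wipf1 did not pass. Wasl, which encodes the widely expressed N-WASP, had the largest change of the 44 genes in young TOM+ cDC2. Its gene lies at chr6:24613810-24664995 (GRCm38). It stood at 19.8, 14.1 and 14.0 TPM in young TOM+ cDC2, 22.9, 16.6 and 16.6 TPM in young TOM- DC2 and 24.7, 23.7 and 28.9 TPM in adults, so that no young library reached the lowest adult. Its log2FC was -0.81 ± 0.11, a 1.76-fold lower count (edgeR adjusted p = 9.86e-05), and -0.72 ± 0.11 (edgeR adjusted p = 0.000303). Was, its relative in blood cells, stood at 119.7, 131.0 and 87.6 TPM, then 87.3, 96.3 and 92.03 TPM, and 94.6, 88.5 and 65.8 TPM in adults, with all groups overlapping. Its log2FC of 0.32 ± 0.16 in young TOM+ cDC2 did not pass (edgeR adjusted p = 0.146), except without young TOM+ replicate 3 (edgeR adjusted p = 0.0495).

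Cyfip1, a subunit of the WAVE complex that binds Rac, stood at 68.2, 57.0 and 57.0 TPM in young TOM+ cDC2, 72.9, 58.5 and 59.7 TPM in young TOM- DC2 and 71.5, 92.3 and 78.7 TPM in adults. Replicate 1 of young TOM- DC2 lay above the lowest adult library on this scale. The fall was -0.57 ± 0.11 on the log2FC scale in young TOM+ cDC2 (edgeR adjusted p = 0.000987) and -0.54 ± 0.11 in young TOM- DC2 (edgeR adjusted p = 0.00175). Wasf2, the WAVE protein itself, had a log2FC of 0.25 ± 0.093 in young TOM+ cDC2 that barely passed (edgeR adjusted p = 0.0485), and this call was lost without any 1 library other than adult replicate 1, with an edgeR adjusted p of 0.0541 to 0.162. Wipf1, which binds and steadies WASP, passed in neither comparison (edgeR adjusted p = 0.719 and 0.195).

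The small GTPases moved in opposite directions. Rac1 (chr5:143505481-143528031, GRCm38), which drives sheet-like protrusions, stood at 616.5, 592.6 and 568.2 TPM in young TOM+ cDC2, 624.8, 566.9 and 561.0 TPM in young TOM- DC2 and 396.3, 403.9 and 392.8 TPM in adults. The gap between the lowest young and the highest adult library was wider than the spread within any group. Its log2FC was 0.43 ± 0.074 (edgeR adjusted p = 0.000578) and 0.38 ± 0.074 (edgeR adjusted p = 0.00154). Rhog, a relative of Rac that acts upstream of it through DOCK proteins, stood at 551.5, 488.7 and 514.3 TPM, then 566.5, 465.1 and 542.2 TPM, and 545.8, 604.9 and 645.9 TPM in adults. The groups overlapped in TPM at adult replicate 1, and the log2FC was -0.34 ± 0.083 (edgeR adjusted p = 0.00583) and -0.36 ± 0.083 (edgeR adjusted p = 0.00518). With Rac1 higher and Rhog lower, the order of the 2 turned: Rhog was the more abundant message in all 3 adult libraries and Rac1 in all 6 young libraries.

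Rhoh stood at 11.5, 10.8 and 10.9 TPM in young TOM+ cDC2, 13.4, 12.0 and 13.95 TPM in young TOM- DC2 and 14.8, 15.2 and 13.86 TPM in adults. Young TOM+ libraries were all below the adults, and the highest young TOM- library overlapped with the lowest adult. Rhoh was lower in young TOM+ cDC2 with a log2FC of -0.52 ± 0.093 (edgeR adjusted p = 0.000823). In young TOM- DC2 the log2FC was -0.32 ± 0.093 (edgeR adjusted p = 0.0185), a call that was lost without young TOM- replicate 1 (0.0536) or 2 (0.0696) or without adult replicate 1 (0.0562) or 2 (0.0631). Rac2, the Rac of blood cells, stood at 429.5, 373.9 and 380.1 TPM in young TOM+ cDC2, 484.5, 418.0 and 479.3 TPM in young TOM- DC2 and 311.6, 330.8 and 307.8 TPM in adults. No young library fell to the adult level, and the log2FC was 0.19 ± 0.082 in young TOM+ cDC2 (edgeR adjusted p = 0.0851) and 0.38 ± 0.082 in young TOM- DC2 (edgeR adjusted p = 0.00321). Cdc42, which drives finger-like protrusions, and Rhoa, which drives contraction, had log2FC between -0.08 and 0.09 in both comparisons, with edgeR adjusted p of 0.331 to 0.709.

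DOCK proteins load small GTPases with GTP. Dock2 and Dock8 are needed for the migration of lymphocytes and dendritic cells, and Dock10 belongs to the same family. Dock10 stood at 225.2, 160.0 and 159.5 TPM in young TOM+ cDC2, 238.2, 160.9 and 167.9 TPM in young TOM- DC2 and 240.4, 244.8 and 245.9 TPM in adults. In both young groups replicate 1 was close to the adults and the others were well below. The log2FC was -0.58 ± 0.13 (edgeR adjusted p = 0.00397) and -0.55 ± 0.13 (edgeR adjusted p = 0.00615). Dock8 stood at 88.8, 60.7 and 68.9 TPM, then 102.5, 63.5 and 82.2 TPM, and 84.4, 109.4 and 99.5 TPM in adults, with replicate 1 highest in both young groups and within the adult range. It passed in young TOM+ cDC2, with a log2FC of -0.57 ± 0.15 (edgeR adjusted p = 0.0103), though not without adult replicate 2 (0.0506), and missed the threshold in young TOM- DC2, with -0.41 ± 0.15 (edgeR adjusted p = 0.052). Without young TOM+ replicate 1 or 2, young TOM- replicate 1 or adult replicate 1, the latter value did pass (edgeR adjusted p of 0.0334, 0.0485, 0.0159 and 0.0418). Dock2 had log2FC of -0.14 ± 0.12 and -0.13 ± 0.12 (edgeR adjusted p = 0.386 and 0.436).

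Among the coronins, which bind filaments and tune the Arp2/3 complex, Coro1b alone changed. It stood at 556.4, 521.0 and 528.4 TPM in young TOM+ cDC2, 563.0, 489.9 and 501.5 TPM in young TOM- DC2 and 579.4, 605.5 and 567.1 TPM in adults, without overlap between young and adult libraries. Its log2FC was -0.25 ± 0.075 (edgeR adjusted p = 0.0192) and -0.32 ± 0.075 (edgeR adjusted p = 0.00494). The call in young TOM+ cDC2 was lost without young TOM+ replicate 1 (0.0516) or 2 (0.062) or adult replicate 2 (0.0625). Coro1a, the coronin of blood cells, was more abundant, at 2478 ± 92.2 TPM in young TOM+ cDC2 and 2135 ± 161 TPM in adults, and did not pass (edgeR adjusted p = 0.378 and 0.939), and neither did Coro1c (edgeR adjusted p = 0.993 and 0.196).

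Of the genes for filament growth, capping and severing, Cfl1 is described above, and Vasp, Evl, Fmnl1, Capzb and Gsn passed in neither comparison. Vasp and Evl, which add monomers to growing ends, had log2FC of -0.02 ± 0.13 and -0.24 ± 0.096 in young TOM+ cDC2 (edgeR adjusted p = 0.905 and 0.0604). Evl lay near the threshold in both comparisons. It passed in young TOM+ cDC2 without young TOM+ replicate 1, young TOM- replicate 1 or adult replicate 3 (edgeR adjusted p of 0.0438, 0.0436 and 0.034), and in young TOM- DC2, where its adjusted p was 0.061, without young TOM- replicate 1 or adult replicate 3 (0.0225 and 0.0344). The formin gene Fmnl1 stood at 227.7 ± 16.8 TPM in young TOM+ cDC2 and 207.8 ± 24.8 TPM in adults. The formin gene Diaph1, listed as Diap1, stood at 17.3 ± 2.51 TPM, 17.8 ± 1.63 TPM in young TOM- DC2 and 15.5 ± 1.117 TPM in adults, with log2FC of 0.02 ± 0.11 and 0.03 ± 0.11. Capzb, a subunit of capping protein, had log2FC of 0.15 ± 0.068 and 0.12 ± 0.068 (edgeR adjusted p = 0.109 and 0.191), and Gsn, which severs and caps, -0.14 ± 0.094 in both (edgeR adjusted p = 0.262 and 0.249).

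Of the bundling genes, Lcp1 (L-plastin) stood at 1976 ± 235 TPM in young TOM+ cDC2, 1989 ± 294 TPM in young TOM- DC2 and 1901 ± 109 TPM in adults and did not pass (edgeR adjusted p = 0.538 and 0.415). Fscn1, which encodes fascin and is known to rise when dendritic cells mature, stood at 126.1, 177.7 and 105.5 TPM in young TOM+ cDC2, 111.9, 156.35 and 113.2 TPM in young TOM- DC2 and 163.0, 152.3 and 200.8 TPM in adults. Replicate 2 was the highest library in both young groups and overlapped with the adults. The log2FC was -0.46 ± 0.19 in young TOM+ cDC2 (edgeR adjusted p = 0.0785) and -0.59 ± 0.19 in young TOM- DC2 (edgeR adjusted p = 0.0323). Neither side of the threshold was firm: Fscn1 passed in young TOM+ cDC2 without its replicate 2 (edgeR adjusted p = 0.00739), and the call in young TOM- DC2 was lost without young TOM- replicate 1 (0.0963) or 3 (0.0943) or adult replicate 1 (0.0639) or 3 (0.112).

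Markers of migratory dendritic cells moved the same way as Fscn1. Their sum over 7 genes was 724.7 to 770.5 TPM in young TOM+ cDC2, 833.6 to 945.9 TPM in young TOM- DC2 and 2367 to 3583 TPM in adults, and none was at 0 in all libraries. Of the 7, 6 were lower in both young groups with a log2FC beyond 1, led by Ccr7, the receptor that guides dendritic cells to lymph nodes, at 306.7 ± 18.0 TPM in young TOM+ cDC2, 420.7 ± 73.2 TPM in young TOM- DC2 and 1790 ± 466 TPM in adults. Ccl22, the other of the 7, did not pass (edgeR adjusted p = 0.144 and 0.53). Such a log2FC, in either direction, was called for 12.8% and 11.3% of all genes tested. Proliferation genes moved the other way, with sums of 965.3 to 990.0 TPM, 903.0 to 928.5 TPM and 479.1 to 550.6 TPM. The part of either in the results for Fscn1 and the other genes was not tested.

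The myosins changed in both directions. Myo1g (chr11:6506548-6520960, GRCm38), a class I myosin of blood cells that links filaments to the plasma membrane, had the smallest adjusted p of the 44 genes. It stood at 214.0, 183.4 and 173.3 TPM in young TOM+ cDC2, 217.4, 170.3 and 184.9 TPM in young TOM- DC2 and 290.8, 291.8 and 279.4 TPM in adults. Every adult library was above every young one, and the log2FC was -0.76 ± 0.087, a 1.70-fold lower count (edgeR adjusted p = 2.74e-05), and -0.78 ± 0.087 (edgeR adjusted p = 3.03e-05). Myo1e, another membrane-bound class I myosin, stood at 17.2, 13.7 and 12.1 TPM, then 18.2, 14.9 and 15.7 TPM, and 20.9, 19.3 and 19.97 TPM in adults, so that no young library reached the adults, with a log2FC of -0.62 ± 0.10 (edgeR adjusted p = 0.000457) and -0.47 ± 0.10 (edgeR adjusted p = 0.00357). Myo1f, also of class I and of blood cells, did not pass with all libraries (log2FC of -0.18 ± 0.11 and -0.24 ± 0.11, edgeR adjusted p = 0.214 and 0.118), but did in young TOM- DC2 without young TOM- replicate 1 (edgeR adjusted p = 0.0334).

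Myh9, the heavy chain of the contractile non-muscle myosin, stood at 164.1, 125.5 and 123.4 TPM in young TOM+ cDC2, 160.1, 111.9 and 135.3 TPM in young TOM- DC2 and 104.7, 102.8 and 87.0 TPM in adults. No young library reached down to the adults, but the log2FC of 0.34 ± 0.12 in young TOM+ cDC2 (edgeR adjusted p = 0.0445) was lost without any 1 library except young TOM- replicates 1 and 2, with an edgeR adjusted p of 0.0545 to 0.163. In young TOM- DC2 the log2FC was 0.29 ± 0.12 (edgeR adjusted p = 0.0895), and it passed without young TOM- replicate 2 (edgeR adjusted p = 0.0405).

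Talin and vinculin tie integrins to actin. Tln1, encoding talin, stood at 295.1, 224.4 and 233.2 TPM in young TOM+ cDC2, 316.3, 215.0 and 261.1 TPM in young TOM- DC2 and 170.7, 181.4 and 144.8 TPM in adults. All 6 young libraries were above all 3 adult ones, and the log2FC was 0.47 ± 0.13 (edgeR adjusted p = 0.0126) and 0.51 ± 0.13 (edgeR adjusted p = 0.00889). Vcl (chr14:20929383-21033676, GRCm38), encoding vinculin, which talin recruits, stood at 22.8, 23.2 and 20.3 TPM in young TOM+ cDC2, 20.7, 13.7 and 14.2 TPM in young TOM- DC2 and 16.9, 18.4 and 19.1 TPM in adults. It was thus above the adult range in all young TOM+ libraries and below it in 2 of 3 young TOM- libraries. The log2FC was 0.17 ± 0.12 in young TOM+ cDC2 (edgeR adjusted p = 0.287) and -0.34 ± 0.12 in young TOM- DC2 (edgeR adjusted p = 0.0436). The latter was lost without young TOM+ replicate 2 (0.0505), young TOM- replicate 2 (0.156) or 3 (0.124), or adult replicate 1 (0.0615), 2 (0.107) or 3 (0.101).

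The balance of directions depended on the scaling of the libraries. TMM, the scaling used here, gave the adult libraries factors of 0.894 to 0.928 and the young libraries 1.02 to 1.08. Scaling by library size alone moved the median log2FC of all genes tested up by 0.20 in young TOM+ cDC2 and by 0.22 in young TOM- DC2, and the 44 genes moved with it. They then split into 20 higher and 6 lower in young TOM+ cDC2, in place of 9 and 9, where 33.1% of all genes tested were higher and 12.6% lower. In young TOM- DC2 they split into 18 higher and 3 lower, in place of 7 and 10, where 34.7% of all genes tested were higher and 10.2% lower. limma on log2(TPM + 1) gave 13 higher and 5 lower in young TOM+ cDC2 (28.2% and 13.7% of all genes tested), and 13 higher and 1 lower in young TOM- DC2 (29.9% and 11.1%). The medians of the 44 changed sign, to 0.18 and 0.13 with library size alone. No call turned its direction: under TMM, DESeq2 size factors, upper quartile and library size alike, Cfl1, Arpc2, Arpc4, Arpc5, Rac1, Tln1 and Actr3 were higher and Wasl, Cyfip1, Rhoh, Dock10, Myo1e and Myo1g lower in young TOM+ cDC2. In young TOM- DC2 the same held for Cfl1, Arpc2, Arpc4, Arpc5, Rac1, Rac2 and Tln1 as higher and for Wasl, Cyfip1 and Myo1g as lower. With library size alone, the falls of Rhog, Coro1b and Dock8 did not pass in young TOM+ cDC2 (edgeR adjusted p = 0.185, 0.618 and 0.0776), nor did those of Rhog, Coro1b, Rhoh, Dock10, Myo1e, Fscn1 and Vcl in young TOM- DC2 (edgeR adjusted p of 0.0839 to 0.502).

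**Figure D3:**
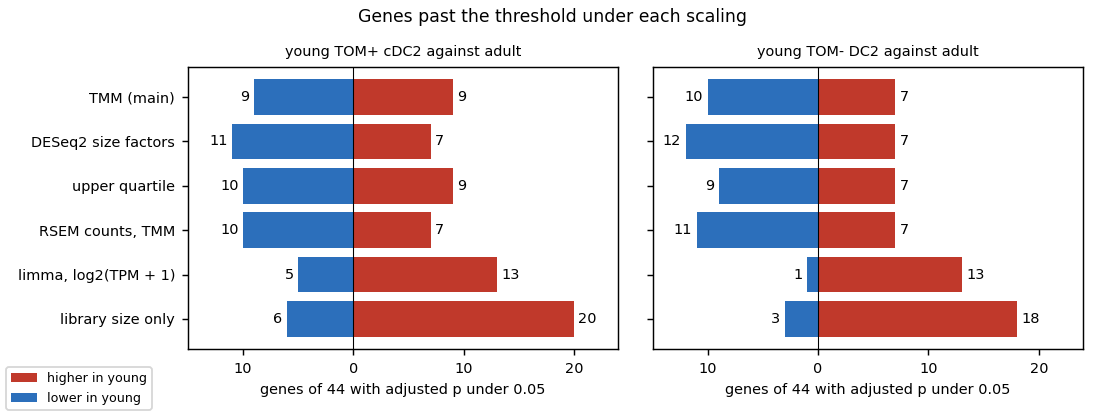
Number of the 44 genes with an adjusted p under 0.05 that were higher (right of 0) or lower (left of 0) in young TOM+ cDC2 and in young TOM- DC2 than in adults, under 6 scalings or counts (DESeq2 size factors, upper quartile and library size within edgeR). The split was 9 and 9 (higher, lower) with TMM and 20 and 6 with library size alone in young TOM+ cDC2.

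Ratios between related genes within a library do not depend on its scaling, so 14 ratios of TPM were compared. With 3 libraries per group the smallest p of the two-sided exact permutation test is 0.1, so none could pass 0.05, and the ratios are given by level and overlap. Rhog to Rac1 stood at 0.894, 0.825 and 0.905 in young TOM+ cDC2, 0.907, 0.821 and 0.966 in young TOM- DC2 and 1.38, 1.498 and 1.64 in adults (exact p = 0.1 for either age comparison). Myo1g to Myo1f was 0.476 ± 0.0299 in young TOM+ cDC2, 0.486 ± 0.0241 in young TOM- DC2 and 0.695 ± 0.0387 in adults (SD, n = 3; exact p = 0.1 for either). Was to Wasl was 7.21 ± 1.81 in young TOM+ cDC2, 5.06 ± 1.08 in young TOM- DC2 and 3.28 ± 0.874 in adults. Young TOM- DC2 overlapped with adults (exact p = 0.2) and young TOM+ cDC2 did not (exact p = 0.1).

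Dock2 to Dock8 was also apart, at 1.90 ± 0.0833 in young TOM+ cDC2, 1.72 ± 0.0898 in young TOM- DC2 and 1.41 ± 0.0844 in adults, and so were Arpc5 to Arpc5l, at 7.498 ± 0.717, 7.16 ± 0.581 and 5.72 ± 0.610, and Coro1a to Coro1b, at 4.63 ± 0.116, 4.62 ± 0.254 and 3.66 ± 0.292. These ratios show unequal change of 2 genes and not which of them moved. Actb to Actg1 was 1.60 ± 0.205 in young TOM+ cDC2, 1.51 ± 0.259 in young TOM- DC2 and 1.30 ± 0.0167 in adults. In each young group it was highest in replicate 1. Rac2 to Rac1 differed between the young groups without overlap, at 0.665 ± 0.0330 in young TOM+ cDC2 and 0.789 ± 0.0596 in young TOM- DC2 (exact p = 0.1), and young TOM- DC2 overlapped with the adults at 0.796 ± 0.0198. Was to Wasl and Myo1f to Myo1e were also apart between the young groups (exact p = 0.1 for either). Myo1f to Myo1e was 28.2 ± 2.35 in young TOM+ cDC2, 24.2 ± 1.68 in young TOM- DC2 and 20.7 ± 2.19 in adults. Arpc1b to Arpc1a was 22.7 ± 1.97, 20.8 ± 1.13 and 19.1 ± 1.51. For these latter ratios young TOM+ cDC2 lay apart from adults and young TOM- DC2 overlapped with them. Dock10 to Dock8, Evl to Vasp, Coro1a to Coro1c and Fmnl1 to Diaph1 overlapped in all comparisons.

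**Figure D4:**
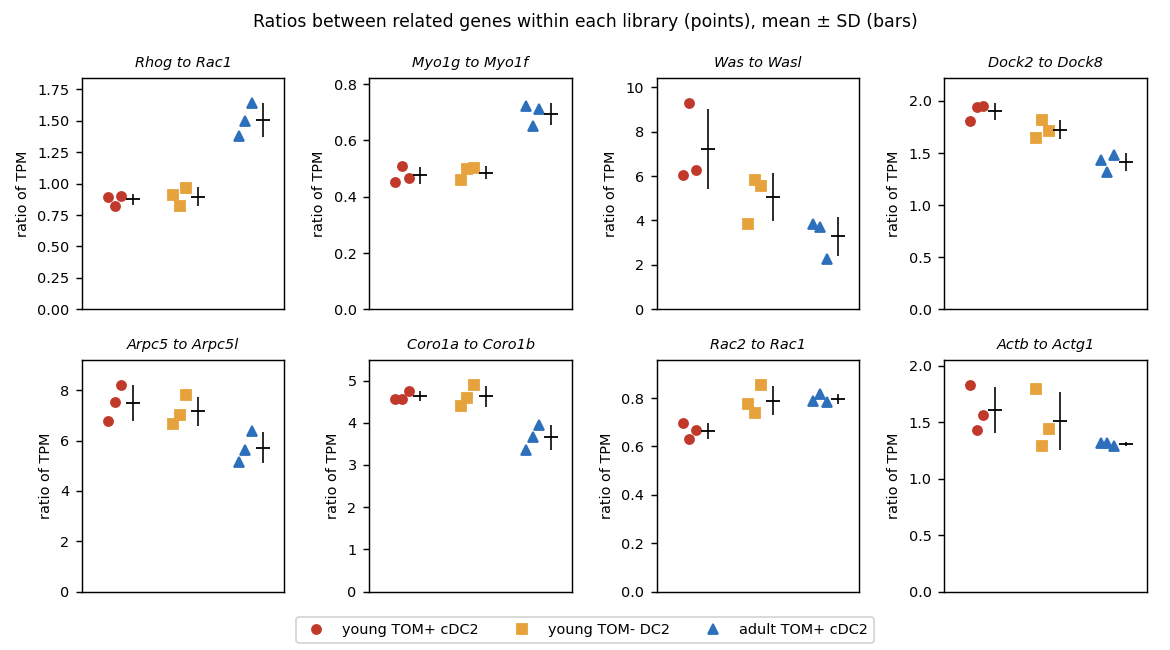
Ratio of TPM between related genes in each library (points, 3 per group) with the group mean ± SD (bars), for 8 of the 14 ratios. Rhog to Rac1 lies below 1 in all 6 young libraries and above 1 in all 3 adult libraries, and Myo1g to Myo1f lies at 0.454 to 0.510 in young and 0.651 to 0.722 in adult libraries.

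The second question was whether the machinery differed between young cells with and without a Clec9a history. By the fit of all libraries, 0 of the 44 genes passed in young TOM+ cDC2 against young TOM- DC2, where 1.60% of all genes tested passed in edgeR, 0.125% higher and 1.47% lower in TOM+ cells, and 1.18% passed with a log2FC beyond 1. The log2FC of the 44 ran from -0.20 to 0.50, with a median of 0.03. At an unadjusted p under 0.05 there were 3, namely Vcl, Rac2 and Rhoh. Young libraries with the same number in their deposited names (81, 91 or 92) deviated together, and with that number as a block 3 of the 44 passed: Vcl and Was as higher and Rac2 as lower in TOM+ cells, where the block fit called 2.23% of all genes tested higher and 4.34% lower. DESeq2 called 1, Vcl, and limma on log2(TPM + 1) called 0.

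Vcl was 1.42-fold higher in young TOM+ cDC2, with a log2FC of 0.50 ± 0.12 (edgeR adjusted p = 0.063) and, with the block, 0.51 ± 0.091 (edgeR adjusted p = 0.0023). It was higher in TOM+ cells in 3 of 3 pairs, and the TPM of the groups overlapped because young TOM- replicate 1, at 20.7 TPM, lay above the lowest TOM+ library, at 20.3 TPM. Without young TOM- replicate 1 the log2FC was 0.66 (edgeR adjusted p = 0.00393), and without both libraries numbered 81 it was 0.67 (edgeR adjusted p = 0.00734). Rac2 had a log2FC of -0.19 ± 0.082 (edgeR adjusted p = 0.469) and -0.19 ± 0.050 with the block (edgeR adjusted p = 0.034), and was lower in TOM+ cells in 3 of 3 pairs. Was had a log2FC of 0.32 ± 0.16 (edgeR adjusted p = 0.619) and 0.30 ± 0.086 with the block (edgeR adjusted p = 0.0487), and its level was higher in 2 of 3 pairs. Young TOM- DC2 also carried messages that TOM+ cells nearly lacked: the ILC3 genes summed to 27.2 to 35.4 TPM in young TOM- DC2, 3.31 to 4 TPM in young TOM+ cDC2 and 3.74 to 5.54 TPM in adults, with Il22 at 0 in all libraries. Their part in the differences of Vcl, Rac2 and Was was not tested.

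**Figure D5:**
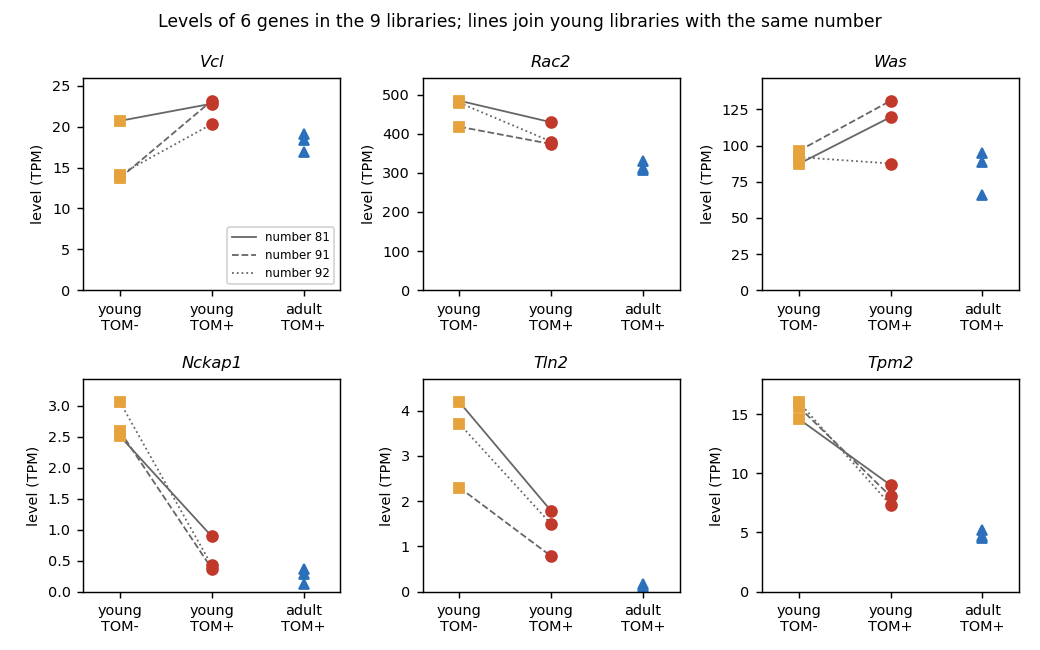
Level in TPM of Vcl, Rac2 and Was (top) and of the related genes Nckap1, Tln2 and Tpm2 (bottom) in each library; lines join the young TOM- and TOM+ libraries that carry the same number (81, 91 or 92). In all 3 pairs the TOM+ library is above the TOM- library for Vcl and below it for Rac2, Nckap1, Tln2 and Tpm2, and for Was it is above in 2 of 3.

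Replicate 1 of both young groups stood apart for the long genes of this machinery. It was the highest of its group for 32 of the 44 genes in young TOM+ cDC2 and for 30 in young TOM- DC2, against 13 for replicate 1 of the adults. Across the 44 genes, the log2 ratio of replicate 1 to the mean of the other libraries followed transcript length with a Spearman rank correlation of 0.49 in young TOM+ cDC2, 0.48 in young TOM- DC2 and 0.15 in adults. Across all genes tested above 0 the rank correlation was 0.25, 0.25 and -0.04. Genes of a library are not independent and share its depth, so these are descriptions. Dock8, Dock10, Myh9 and Tln1, whose replicate 1 was the highest of both young groups, are the longest of the 44, and the log2FC of Dock8 in young TOM- DC2 passed without both libraries numbered 81 (edgeR adjusted p = 0.00477) while that of Myh9 in young TOM+ cDC2 was lost (edgeR adjusted p = 0.138). Myo1f then passed as lower in both comparisons (edgeR adjusted p = 0.0223 and 0.0095).

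The 134 further genes of the pathway give the surroundings of the 44. Of the 129 that were tested, 27 were higher and 45 lower in young TOM+ cDC2 than in adults (55.8% in all, 19 of them with a log2FC beyond 1), and 25 were higher and 43 lower in young TOM- DC2 (52.7% in all, 16 with a log2FC beyond 1). Over all genes tested the shares that passed were 40.6% and 36.3%, and those that passed beyond a log2FC of 1 were 12.8% and 11.3%. By direction they were 21.0% higher and 19.5% lower in young TOM+ cDC2, and 19.4% and 16.9% in young TOM- DC2. With library size alone the split of the 129 turned to 48 higher and 29 lower, and 46 higher and 21 lower. That scaling called 33.1% of all genes tested higher and 12.6% lower in young TOM+ cDC2, and 34.7% and 10.2% in young TOM- DC2. Unlike the 44, the list holds genes with a log2FC beyond 1 that passed, and those with the highest and lowest values are given here.

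Capg, which caps filament ends, stood at 19.0, 22.7 and 22.9 TPM in young TOM+ cDC2, 35.2, 44.2 and 41.6 TPM in young TOM- DC2 and 3.14, 3.60 and 1.65 TPM in adults, with a log2FC of 2.77 ± 0.25 (edgeR adjusted p = 5.47e-06) and 3.66 ± 0.25 (edgeR adjusted p = 1.04e-06). Tln2, the second talin, stood at 1.78, 0.78 and 1.49 TPM, then 4.19, 2.30 and 3.71 TPM, and 0.07, 0.13 and 0.16 TPM in adults, with a log2FC of 3.27 ± 0.36 (edgeR adjusted p = 2.27e-05) and 4.58 ± 0.35 (edgeR adjusted p = 2.22e-06). Tiam1, an exchange factor for Rac, stood at 8.10 ± 0.371 TPM in young TOM+ cDC2 and 1.13 ± 0.419 TPM in adults (log2FC of 2.70 ± 0.19, edgeR adjusted p = 9.59e-07). Tln1 was the more abundant talin message in young cells, at 250.9 ± 38.5 TPM in TOM+ cDC2 against 1.35 ± 0.514 TPM of Tln2.

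Among the genes that fell, Scin, a relative of gelsolin, stood at 0.977 ± 0.103 TPM in young TOM+ cDC2, 1.85 ± 0.200 TPM in young TOM- DC2 and 6.46 ± 2.69 TPM in adults (log2FC of -2.80 ± 0.32 and -1.87 ± 0.30, edgeR adjusted p = 3.06e-05 and 0.000454). Rhob, a short-lived relative of Rhoa, stood at 16.1 ± 3.63, 19.0 ± 2.07 and 72.1 ± 23.6 TPM (log2FC of -2.27 ± 0.21 and -2.08 ± 0.21, edgeR adjusted p = 7.03e-06 and 1.69e-05). Arpin, an inhibitor of the Arp2/3 complex listed under a clone name, stood at 3.80, 2.67 and 3.93 TPM in young TOM+ cDC2 and 14.1, 11.1 and 15.5 TPM in adults, a log2FC of -2.09 ± 0.17 (edgeR adjusted p = 2.81e-06). Arhgef3, an exchange factor for small GTPases, stood at 25.8 ± 2.36 TPM in young TOM- DC2 and 65.9 ± 7.39 TPM in adults (log2FC of -1.51 ± 0.11, edgeR adjusted p = 1.51e-06).

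Between the young groups, 0 of the 129 were higher and 6 were lower in TOM+ cells (4.65%), where 0.125% of all genes tested were higher and 1.47% lower. The count fell to 3 without young TOM+ replicate 2 or 3 or young TOM- replicate 2, and to 2 without young TOM- replicate 3. With the block it was 20, of which 11 were higher and 9 lower, where that fit called 2.23% and 4.34% of all genes tested. Nckap1, a subunit of the WAVE complex, stood at 0.89, 0.37 and 0.42 TPM in young TOM+ cDC2, 2.51, 2.59 and 3.06 TPM in young TOM- DC2 and 0.28, 0.12 and 0.36 TPM in adults. It was lower in TOM+ cells with a log2FC of -2.29 ± 0.34 (edgeR adjusted p = 0.00303), and higher in young TOM- DC2 than in adults with a log2FC of 3.38 ± 0.40 (edgeR adjusted p = 4.66e-05). Tln2 and Tpm2, a tropomyosin, were lower in TOM+ cells as well, with log2FC of -1.31 ± 0.25 and -0.92 ± 0.12 (edgeR adjusted p = 0.0183 and 0.0015). Tpm2 stood at 8.13 ± 0.847 TPM in young TOM+ cDC2, 15.4 ± 0.736 TPM in young TOM- DC2 and 4.85 ± 0.352 TPM in adults. All 3 kept their calls with the block. Nckap1 and Tpm2 also kept them with any 1 library left out, while that of Tln2 was lost without young TOM+ replicate 3 (0.0604) or young TOM- replicate 1 (0.0558) or 3 (0.107). The call of Tln2 was also lost with only the 2 groups compared (edgeR adjusted p = 0.0518). With limma on log2(TPM + 1) and on log2(TPM + 0.1) it was lost too (limma adjusted p = 0.0775 and 0.177).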

How the data were processed

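Messenger RNA of sorted splenic cells was copied with SMART-seq v4, which keeps no strand, amplified by PCR without molecular identifiers and sequenced as single-end reads. Per the methods and the labels, the authors aligned reads to mm10 with STAR and estimated levels with RSEM on RefSeq transcripts. The deposited counts are STAR's unstranded reads per gene, without normalization. The deposited expected counts are RSEM estimates, rounded here where tested, and the deposited TPM are relative to each library's total. The deposited FPKM and STAR's stranded columns were not used. Reads that STAR assigned to no gene (26.1% to 31.6% of all) stayed out of library sizes and tests. Reads on overlapping or antisense genes, and on near-identical copies, are uncertain.

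Differences were tested with edgeR 4.0.16 (R 4.3.3), by its quasi-likelihood test with TMM on the counts of all 9 libraries in 3 groups, for the 14452 genes averaging 1 or more reads per library, with Benjamini-Hochberg adjustment over all of them. A gene passed at an adjusted p under 0.05. The SE given with an edgeR log2FC was derived here, as the size of the log2FC divided by the square root of the test's F statistic. Alternatives used other scalings, DESeq2 1.42.0 with and without apeglm 1.24.0, limma 3.58.1 on log2(TPM + 1) and log2(TPM + 0.1), RSEM counts, other filters, only the 2 groups compared, libraries left out and a replicate block. On simulated data for young TOM+ cDC2 against adults, with 200 of 14452 genes changed, edgeR recovered 46% at a log2 change of 0.5, 88% at 1 and 100% at 2, with 10 false calls. No libraries of a group were copies of each other (lowest chi-square per gene 8.743). Same-numbered young libraries deviated together (correlations 0.50, 0.18 and 0.33, against -0.41 to 0.19 for pairs with different numbers, of which 1 exceeded the lowest same-number value), so the number in the deposited names, whose meaning is not given in the sources used here, served as the block between the young groups. Adult libraries carry the numbers 91, 92 and 95. The block fit held all 9 libraries, so adult 91 and 92 shared block terms with the young libraries of the same number. Its calls therefore assume that a number has the same effect in young and adult libraries. The age comparisons were not tested with the block. The p-values measure the spread between these libraries. Precision at these depths is set by replicate spread more than by counting error.

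The 45 genes and all gene lists were chosen with earlier results of these data known. The text gives every one of the 45, and of the further pathway genes the 3 highest and 3 lowest log2FC per comparison among those that passed and averaged 50 or more reads per library, of which some meet the rule in several comparisons.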

Additional observations from a re-analysis of the deposited data

How the results depend on the processing

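Of the alternatives, 21 were run for each age comparison and 22 between the young groups, and none turned the direction of a call. With library size alone, 20 genes were higher in young TOM+ cDC2, and 18 higher and 3 lower in young TOM- DC2. limma on log2(TPM + 1) and on log2(TPM + 0.1) each gave 5 lower in young TOM+ cDC2, and 13 higher and 1 lower in young TOM- DC2. Between the young groups, 1 gene passed, as higher in TOM+ cells, with the DESeq2 Wald test, with DESeq2 and apeglm, with no filter and without both libraries numbered 81, and 3 passed with the replicate block, 2 higher and 1 lower. Between the young groups the block changed no call of the 44 other than Vcl, Was and Rac2, and the age comparisons were run without it. Leaving out 1 library at a time gave 15 to 19 genes in young TOM+ cDC2 (6 to 8 higher, 7 to 11 lower), 14 to 18 in young TOM- DC2 (6 to 8 higher, 8 to 11 lower) and 0 to 1 between the young groups (0 to 1 higher, 0 lower), with 0 past a log2FC of 1 in each. Cfl1, Arpc2, Arpc4, Rac1 and Tln1 as higher and Wasl, Cyfip1, Rhoh, Myo1e and Myo1g as lower passed under all 21 in young TOM+ cDC2, and Cfl1, Arpc2, Rac1, Rac2, Tln1 and Myo1g did in young TOM- DC2. At 3 libraries a group, log2 changes near 0.5 were recovered less often than not on simulated data. Those data had 200 of 14452 genes changed, whereas 40.6% passed here in young TOM+ cDC2. The recovery therefore does not measure the power of these tests, and genes that did not pass may still differ.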
